A study of Mus musculus with 8 samples.

Results

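Transcripts of the choroid plexus were followed through RNA-seq of mouse cerebellum in 10 genes: Ttr, Folr1, Prlr, Kl, Aqp1, Kcne2, Clic6, Tmem72, Sostdc1 and Cldn1. They were chosen as genes known from this epithelium, and a locus was kept where its symbol field held 1 of the 10 names. All 10 were found, at 11 of the 11763 loci that the authors' deposited tables list. Tmem72 is the symbol of 2 loci, XLOC_018580 and XLOC_019181, and Clic6 shares a locus (XLOC_008657) with 2410124H12Rik, so the value of that locus cannot be split between them.

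The 4 groups were cKO runner, cKO sedentary, control runner and control sedentary, all of them male C57Bl/6 mice at postnatal day 40. The cKO is labelled Snf2h cKO-Nestin. It is a conditional knockout of Snf2h, the chromatin remodelling ATPase encoded by Smarca5, with the Nestin driver of neural progenitors, and the alleles carried by the controls are not given in the labels. Runners had a running condition that sedentary mice did not, and its form and length are not given in the labels. RNA was pooled from 3 cerebella for a library, and every group had 2 libraries, told apart by a lane letter and described in the series as biological replicates. Each value is the authors' single FPKM of a group (fragment number divided by transcript length and by library size), in which both libraries were combined. No spread between libraries can therefore be given, and a value set by 1 library of a group could not be seen. Depth is unknown. Smarca5 had 5.38 FPKM in cKO runner and 4.94 in cKO sedentary, against 12.96 in control runner and 12.6 in control sedentary, in the authors' deposited tables.

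The choroid plexus is a sheet of secretory epithelium over leaky capillaries that hangs into the brain ventricles and makes cerebrospinal fluid. One of its parts lies in the fourth ventricle, directly under the cerebellum. Its epithelial cells pump ions and water, carry hormones and vitamins from blood to fluid, and are joined by tight junctions. In brain RNA, Ttr is the classic sign of this epithelium. The labels say only that cerebella were dissected quickly and frozen, so how much plexus stayed with each pool is not recorded.

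The control sedentary group stood apart from the other groups for these genes. All 11 loci had their lowest listed value there, though Folr1, Sostdc1 and Tmem72 at XLOC_019181 have no value for cKO runner. At 10 of the 11 loci, all but the Clic6 locus, the lowest of the other listed groups was between 3.64-fold and 9.92-fold above control sedentary. Among the 8 loci with a value in every group, the highest and the lowest of cKO runner, cKO sedentary and control runner lay between 1.23-fold and 1.82-fold apart. Both comparisons that use control sedentary thus hold large increases, and they share those libraries, so they are not separate evidence. In bulk tissue, fewer plexus cells and less RNA per cell cannot be told apart.

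**Figure D1:**
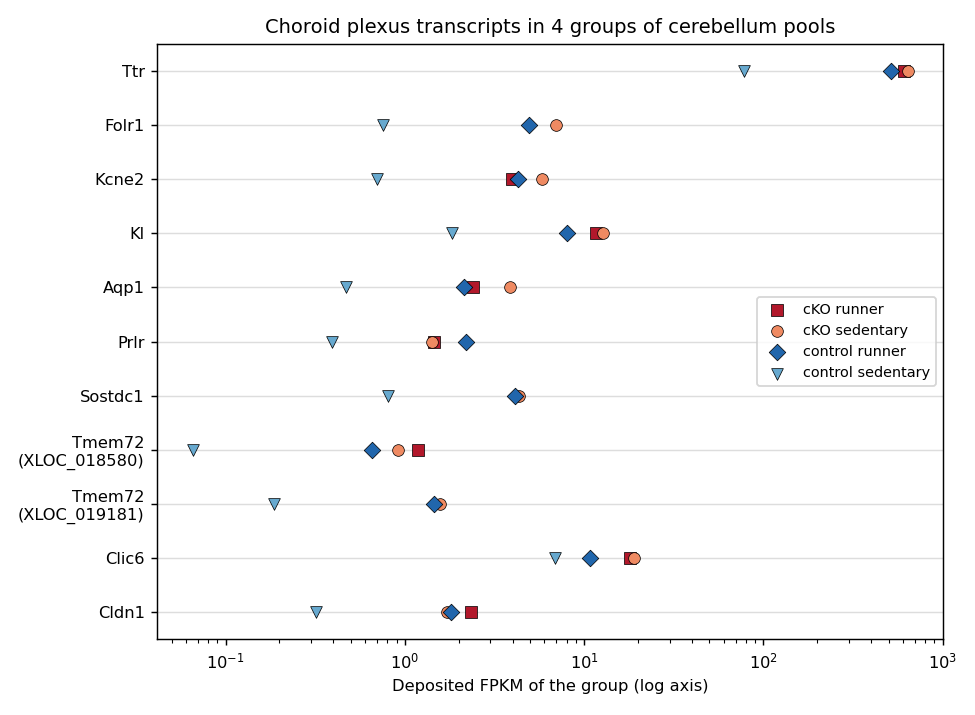
Deposited FPKM of each choroid plexus locus (rows) on a log axis, with 1 point for each group that has a value and no error since the tables give 1 value per group. The control sedentary triangles lie left of all other points at each of the 11 loci, for Ttr at 77.7 FPKM against 518 to 639.6.

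Upstream sequence of 3 members is shown because their transcripts moved together, by 2.80 to 3.05 on the log2 scale in the sedentary cKO, while their levels and functions differ. These are the 250 bases before the RefSeq start site (GRCm38.p6, the build also called mm10), 5′ to 3′ on the gene's strand, in lower case. The search for motifs covered these 250 bases and no base past the start. Capitals mark GTTGCC or its reverse complement GGCAAC, a short core of the X-box read by RFX factors.
Kcne2 (chr16:92292139-92292388, plus strand): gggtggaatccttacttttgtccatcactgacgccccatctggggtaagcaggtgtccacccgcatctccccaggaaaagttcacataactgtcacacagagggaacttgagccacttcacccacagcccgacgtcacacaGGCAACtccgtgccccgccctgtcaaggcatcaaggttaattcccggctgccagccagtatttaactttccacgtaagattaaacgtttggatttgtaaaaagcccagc
Aqp1 (chr6:55336049-55336298, plus strand): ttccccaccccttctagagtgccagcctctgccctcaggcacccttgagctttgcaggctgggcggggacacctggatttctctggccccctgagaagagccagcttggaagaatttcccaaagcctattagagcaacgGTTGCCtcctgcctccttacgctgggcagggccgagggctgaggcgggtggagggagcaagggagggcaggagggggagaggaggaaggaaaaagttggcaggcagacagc
Kl (chr5:150952357-150952606, plus strand): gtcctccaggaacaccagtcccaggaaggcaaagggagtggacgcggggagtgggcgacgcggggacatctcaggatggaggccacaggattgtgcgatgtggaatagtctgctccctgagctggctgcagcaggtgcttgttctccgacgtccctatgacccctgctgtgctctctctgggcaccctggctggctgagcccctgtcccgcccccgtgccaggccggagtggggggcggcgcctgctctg
The match lay 109 bases before the start in Kcne2 and 111 bases before it in Aqp1, and there was none in Kl. RefSeq start sites were found for 6 of the 10 members, in 9 entries. On both strands, GTTGCC was in 2 of the 9 entries, against 10.4% of all 32851 entries. The forkhead core GTAAACA was in 1, of Prlr, against 3.17%, and neither the OTX core TAATCC (6.25% of all entries) nor TATAAA (12.4%) was in any of the 9. These are letters in a window and not sites.

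Ttr, which encodes transthyretin, the carrier of thyroid hormone and of retinol-binding protein in cerebrospinal fluid, was by far the most abundant member. Ttr (XLOC_010417; plus strand of chromosome 18, 20665280 to 20674321 in GENCODE M21, build mm10) had 610.2 FPKM in cKO runner, 639.6 in cKO sedentary, 518 in control runner and 77.7 in control sedentary, in the authors' deposited tables. It stood high in both cKO groups and in control runner and low in control sedentary. The authors' deposited tables gave a log2 fold change of 3.04 (SE 0.077) for cKO over control in sedentary mice and of 0.24 (SE 0.026) in runners. For runner over sedentary they gave 2.74 (SE 0.077) in the control and -0.07 (SE 0.025) in the cKO. All calls had q = 0.000167, the smallest in the tables, and a locus was called at q below 0.05. Single-gene fold changes printed below without a q have this same q, while counts of called loci include larger ones. Each standard error (SE) is the log2 change over its test statistic, both from the deposited table.

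Of the receptors, Folr1 encodes folate receptor alpha, which carries folate across the epithelium. Folr1 (XLOC_021188; chromosome 7, 101858331 to 101870788, minus strand) had 6.97 FPKM in cKO sedentary, 4.91 in control runner and 0.754 in control sedentary. No value was listed for cKO runner. In the authors' deposited tables it was 9.24-fold higher in cKO than in control sedentary mice and 6.51-fold higher in control runners than in control sedentary mice. It was listed in neither table that compares cKO runner with another group.

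Kl encodes klotho, a co-receptor that lets FGF receptors bind FGF23 and that is also shed into the fluid. Kl (XLOC_017352; chromosome 5, 150952607 to 150993817, plus strand) had 11.7 FPKM in cKO runner, 12.8 in cKO sedentary, 8.01 in control runner and 1.84 in control sedentary. The cKO groups were close together, control runner was somewhat lower, and control sedentary was far below. The authors' deposited tables gave log2 fold changes of 2.80 (SE 0.15) for cKO over control in sedentary mice, 0.55 (SE 0.13) in runners and 2.12 (SE 0.17) for running in the control.

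Prlr encodes the prolactin receptor and had an order of its own. Prlr (XLOC_007382; chromosome 15, 10177238 to 10349180, plus strand) had 1.46 FPKM in cKO runner, 1.43 in cKO sedentary, 2.20 in control runner and 0.392 in control sedentary. Control runner was thus the highest group, and Prlr was the 1 member called lower in cKO runners than in control runners (log2 -0.59, SE 0.21, q = 0.000622 in the authors' deposited table). In sedentary mice it was higher in the cKO by 1.86 (SE 0.31), and with running in the control it was higher by 2.49 (SE 0.31), in the authors' deposited tables.

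Among the genes of fluid and ion transport, Aqp1 encodes the water channel of the apical membrane. Aqp1 (XLOC_018352; chromosome 6, 55336432 to 55348555, plus strand) had 2.41 FPKM in cKO runner, 3.88 in cKO sedentary, 2.13 in control runner and 0.468 in control sedentary. Here cKO sedentary was the highest group. Kcne2 encodes a potassium channel beta subunit. Kcne2 (XLOC_008655; chromosome 16, 92292389 to 92298129, plus strand) had 3.99 FPKM in cKO runner, 5.82 in cKO sedentary, 4.30 in control runner and 0.702 in control sedentary. In the cKO both were lower in runners than in sedentary mice, Aqp1 by -0.68 (SE 0.19) and Kcne2 by -0.54 (SE 0.19, q = 0.000765) on the log2 scale, in the authors' deposited table. Both were called 3.05 higher for cKO over control in sedentary mice, and neither was listed for cKO over control in runners.

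Clic6, of the chloride intracellular channel family, lies 188 kb beyond Kcne2 on chromosome 16 (plus strand, 92485736 to 92541243). Its locus with 2410124H12Rik had 17.97 FPKM in cKO runner, 18.98 in cKO sedentary, 10.8 in control runner and 6.93 in control sedentary. It had the smallest changes of the 11 loci in both comparisons with control sedentary, and its groups fell into 3 steps. The authors' deposited tables gave 1.45 (SE 0.15) for cKO over control in sedentary mice, 0.74 (SE 0.14) in runners and 0.64 (SE 0.17) for running in the control.

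Tmem72 encodes a transmembrane protein. GENCODE M21 has 1 gene of this name, on the minus strand of chromosome 6 (116679063 to 116716913), and the tables give no position by which either locus could be placed on it or on the opposite strand. Locus XLOC_018580 had 1.19 FPKM in cKO runner, 0.921 in cKO sedentary, 0.653 in control runner and 0.0658 in control sedentary. Locus XLOC_019181 had 1.58 FPKM in cKO sedentary, 1.46 in control runner and 0.187 in control sedentary, with no value listed for cKO runner. Tmem72 at XLOC_018580 held the largest fold changes of all members, 14.0-fold for cKO over control in sedentary mice and 9.92-fold for running in the control in the authors' deposited tables. They rest on a control sedentary value under 0.1 FPKM, with standard errors of 0.64 and 0.63 log2.

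Sostdc1 encodes a secreted antagonist of BMP and Wnt signals. Sostdc1 (XLOC_004585; chromosome 12, 36314139 to 36318452, plus strand) had 4.35 FPKM in cKO sedentary, 4.14 in control runner and 0.811 in control sedentary, with no value listed for cKO runner. In the authors' deposited tables it was 5.36-fold higher for cKO over control in sedentary mice and 5.11-fold higher for running in the control. Cldn1 encodes a tight junction protein. Cldn1 (XLOC_008821; chromosome 16, 26356642 to 26371841, minus strand) had 2.36 FPKM in cKO runner, 1.73 in cKO sedentary, 1.80 in control runner and 0.318 in control sedentary. It was the 1 member called higher in cKO runners than in cKO sedentary mice (log2 0.45, SE 0.20, q = 0.0116 in the authors' deposited table).

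Counted over the 11 loci, all 11 were higher in cKO than in control sedentary mice, at a median log2 fold change of 3.04. By the same rule 29.7% of about 15223 tested loci were called higher, and the median over all listed loci was -0.18. All 11 members were also at least 2-fold higher, against 8.75% of tested loci (34.2% of loci were called lower, 3.78% by at least 2-fold). For cKO over control in runners, 5 were higher, 1 was lower and 5 were not listed, with a median of 0.47 over the 6 listed. There 25.1% of about 15121 tested loci were called higher and 28.2% lower, and 5 of 11 stands nearer to that background than 11 of 11 did. None of the 6 reached a 2-fold change, which 5.93% of tested loci did as higher and 2.15% as lower.

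For runner over sedentary in control mice, all 11 were higher, at a median log2 fold change of 2.50, and 10 of them, all but the Clic6 locus, by at least 2-fold. Of about 14590 tested loci, 17.8% were called higher and 14.9% lower, and 0.583% were at least 2-fold higher and 0.37% at least 2-fold lower. The median over all listed loci was 0.11. In the cKO, 1 member was higher with running, 3 were lower and 7 were not listed, with a median of -0.31 over the 4 listed. That median leaves out loci that were not listed but have values in cKO runner and cKO sedentary. These were Kl (11.7 and 12.8 FPKM), Prlr (1.46 and 1.43), Tmem72 at XLOC_018580 (1.19 and 0.921) and the Clic6 locus (17.97 and 18.98). There 13.7% of about 15213 tested loci were called higher and 10.7% lower, with 0.493% and 0.434% at 2-fold or more. None of the 4 members reached 2-fold.

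**Figure D2:**
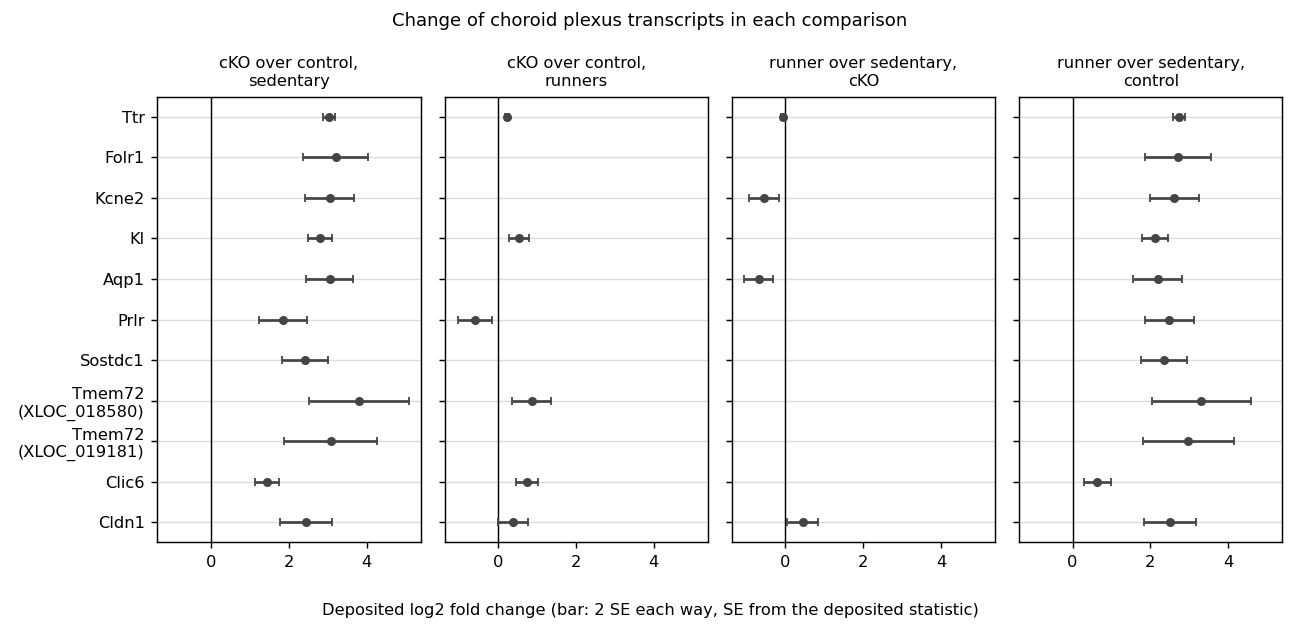
Deposited log2 fold change of each choroid plexus locus (points) in the 4 comparisons (panels), with bars of 2 standard errors each way; a row with no point was not listed in that table. Changes are large for cKO over control in sedentary mice (1.45 to 3.81) and for running in the control (0.64 to 3.31), 2 comparisons that share the control sedentary libraries, and lie between -0.68 and 0.86 in the other panels.

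Whether the genotype effect differed between runners and sedentary mice was tested by a z test on the difference of the deposited log2 fold changes, with Benjamini-Hochberg adjustment over all loci listed in both tables and a 5% limit. It rests on the authors' model of spread with 2 libraries a group, and no exact test can be made from group values, so no p is given. All 6 members that could be tested passed, against 28% of 6751 loci. The difference, runners minus sedentary mice, was -2.80 for Ttr (SE 0.081), -2.25 for Kl (SE 0.20) and -2.45 for Prlr (SE 0.37). It was -2.06 for Cldn1 (SE 0.39), -2.94 for Tmem72 at XLOC_018580 (SE 0.68) and -0.71 for the Clic6 locus (SE 0.21). With standard errors drawn from the deposited p instead, the standard error of the difference was wider for each of the 6. The Clic6 locus then did not pass, and the other 5 did, against 8.28% of the loci. No deposited p of the authors' Cuffdiff test is below 5e-05. Ttr, Kl, Tmem72 at XLOC_018580 and the Clic6 locus had that p in both genotype comparisons. At that floor the standard error follows from the fold change alone and measures no spread, here and in the running comparisons. The difference between the running effects, cKO minus control, is the same quantity and could be tested for Ttr, Kcne2, Aqp1 and Cldn1. All 4 passed, against 66.9% of 2078 loci (61.1% with standard errors from the deposited p, under which all 4 passed too), with -3.16 for Kcne2 (SE 0.37) and -2.87 for Aqp1 (SE 0.37). Folr1, Sostdc1 and Tmem72 at XLOC_019181 could not be tested.

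Proportions among the members depended on which of them served as the measure. Per 1000 FPKM of Ttr in the same group, Folr1 stood at 10.9 in cKO sedentary, 9.48 in control runner and 9.71 in control sedentary. Kcne2 stood at 6.54 in cKO runner, 9.10 in cKO sedentary, 8.30 in control runner and 9.03 in control sedentary. Aqp1 stood at 3.95, 6.06, 4.11 and 6.02 in the same order of groups. The proportion in cKO sedentary over that in control sedentary was 1.12 for Folr1 and 1.01 for Kcne2 and Aqp1, while the levels themselves were 8.29-fold to 9.24-fold higher in cKO sedentary. Tmem72 at XLOC_019181 (1.03-fold) and Kl (0.845-fold) were the other loci within 1.5-fold, which makes 5 of 10.

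The remaining loci lay outside the 1.5-fold limit, which takes no account of error, and their departure from Ttr was not tested. Prlr fell to 2.23 per 1000 FPKM of Ttr in cKO sedentary, against 5.05 in control sedentary, and the Clic6 locus to 29.7 against 89.2. Sostdc1 had 6.79 against 10.4, Cldn1 2.70 against 4.10, and Tmem72 at XLOC_018580 had 1.44 against 0.847. Sostdc1 (0.651-fold) and Cldn1 (0.660-fold) were only just outside the limit. The log2 changes in sedentary mice of these 3 loci had standard errors of 0.29, 0.34 and 0.64. With the summed FPKM of the other members that have a value in every group in place of Ttr, the set changed completely. Prlr (0.851), Sostdc1 (1.26) and Cldn1 (1.29) were then within 1.5-fold, and none of the 5 loci within 1.5-fold against Ttr was, with ratios of 1.89 for Kl to 2.17 for Folr1. In control sedentary the Clic6 locus made up 6.93 of the 10.7 FPKM summed over the 7 loci other than Ttr. That joint locus had the smallest rise in cKO sedentary (1.45 log2), so it weighs heavily on these ratios. Proportions to a sum without it were not computed.

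**Figure D3:**
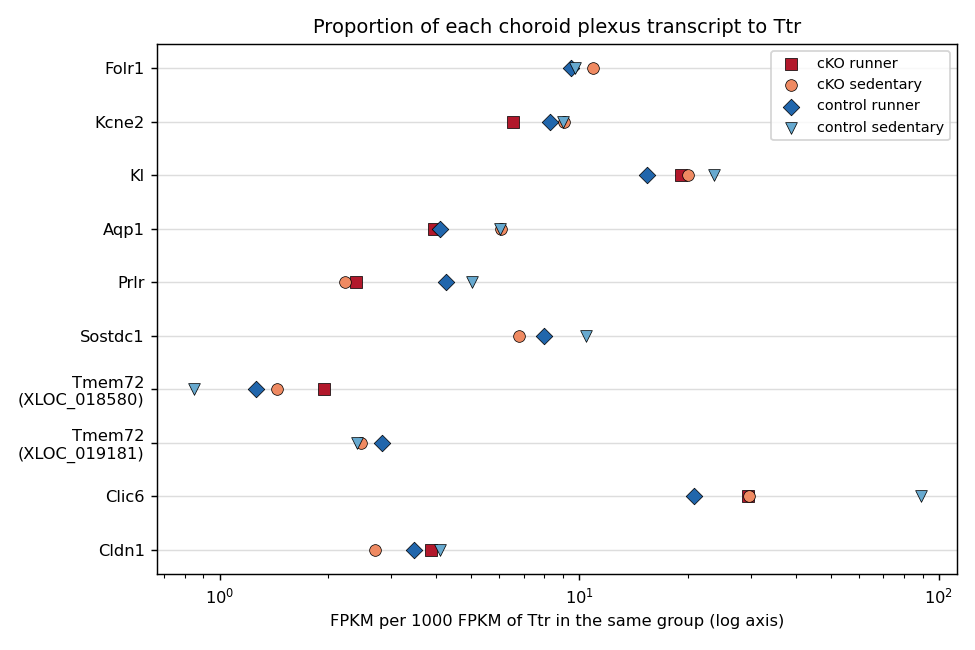
FPKM of each locus per 1000 FPKM of Ttr in the same group (log axis), with 1 point for each group that has a value. Folr1, Kcne2 and Tmem72 at XLOC_019181 keep nearly one proportion between cKO sedentary and control sedentary, while the control sedentary point of the Clic6 locus, at 89.2, lies far right of its other points.

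Other genes known from the choroid plexus were read from lists of transport, secreted, regulator and junction genes. For the counts below, 29.7% of all tested loci were called higher and 34.2% lower for cKO over control in sedentary mice. With running in the control these shares were 17.8% and 14.9%. Of 19 transport loci, 16 were higher and 2 lower for cKO over control in sedentary mice, and 10 were higher and 2 lower for running in the control. The median log2 fold changes over listed loci were 0.83 and 0.40. Slc4a5, a bicarbonate transporter of the apical membrane, had 3.61 FPKM in cKO runner, 3.69 in cKO sedentary, 2.63 in control runner and 0.655 in control sedentary. Kcnj13, a potassium channel gene, had 7.83 in cKO sedentary, 7.99 in control runner and 2.23 in control sedentary. The calcium-permeable channel gene Trpv4 had 2.00, 2.29, 1.35 and 0.427 FPKM in cKO runner, cKO sedentary, control runner and control sedentary. All 3 had their lowest listed value in control sedentary, as the members did. They were named, however, by their change for cKO over control in sedentary mice, which uses that value. Over the 11 transport loci valued in every group, the median in control runner was 0.46 log2 relative to control sedentary. Their summed FPKM was 1065 in control runner and 1022 in control sedentary.

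Of 16 loci of secreted proteins, 15 were higher and 1 lower for cKO over control in sedentary mice, and 13 were higher with none lower for running in the control, with medians of 1.51 and 0.87. F5, the coagulation factor V gene, had 2.77 FPKM in cKO runner, 2.99 in cKO sedentary, 1.96 in control runner and 0.413 in control sedentary. Enpp2, which encodes the lysophosphatidic acid producing enzyme autotaxin and is also transcribed in oligodendrocytes, had 382 in cKO runner, 377 in cKO sedentary, 326 in control runner and 129 in control sedentary. In the authors' deposited table for cKO over control in sedentary mice, Col8a2, a collagen gene, was higher by 2.33 and Calml4 by 2.26. Among 7 loci of junctions and cytoskeleton, 5 were higher and 1 lower in that comparison and 3 were higher with running in the control. Cldn2, the claudin of leaky epithelia, had 4.45 FPKM in cKO runner, 4.56 in cKO sedentary, 3.16 in control runner and 0.871 in control sedentary. In the same authors' deposited table Krt8, an epithelial keratin gene, was higher by 2.33 (q = 0.000765) and Ezr, which links membrane to actin, by 0.89.

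Regulators and receptors were more mixed. Of 11 loci, 6 were higher and 4 lower for cKO over control in sedentary mice, and 4 were higher and 1 lower for running in the control. Over all tested loci, 29.7% were called higher and 34.2% lower in the first comparison, so the 4 lower loci stand near that share. In the second, 17.8% were called higher and 14.9% lower. Otx2, a homeobox gene needed to form the plexus, was lower in the cKO: cKO sedentary held 6.21 FPKM, against 7.97 FPKM for control sedentary (log2 -0.36, q = 0.0273 in the authors' deposited table). Htr2c, the serotonin receptor gene known for its high level in the plexus, followed the genotype, with 21.3 FPKM in cKO runner and 20.4 in cKO sedentary, against 10.7 in control runner and 9.55 in control sedentary. Lmx1a, a roof plate regulator, had 0.937 in cKO runner and 1.01 in cKO sedentary, against 0.472 in control runner and 0.379 in control sedentary. Steap1 and Msx1 were higher in the sedentary cKO by 2.37 and 1.41 in the authors' deposited table.

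Partners of the klotho and prolactin receptors had several patterns. Fgfr1 had 34.4 FPKM in cKO runner, 29.1 in cKO sedentary, 33.6 in control runner and 27.9 in control sedentary, higher with running in both genotypes by 0.24 and 0.27 in the authors' deposited tables. Fgfr3 had 47.5 FPKM in cKO runner and 46.6 in cKO sedentary, against 26.1 in control runner and 23.4 in control sedentary. Fgfr2 was likewise higher in the cKO, by 0.53 in sedentary mice and 0.36 in runners, in the authors' deposited tables. Of 7 genes of prolactin receptor signalling, 5 were listed. Socs2, a feedback inhibitor induced through STAT5, was highest in control runner, like Prlr, at 4.39 FPKM in cKO runner, 6.15 in cKO sedentary, 8.99 in control runner and 6.68 in control sedentary. It was lower for cKO over control in runners by -1.03 in the authors' deposited table. Stat5b was lower there as well (-0.48), Cish was higher with running in the control (0.50, q = 0.0268), and Stat5a was higher for cKO over control among sedentary mice (0.76), in the authors' deposited tables. The ligand gene Prl was listed at 0.557 FPKM in cKO runner and at 0 in cKO sedentary.

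All loci were then searched for the same shape. Of 7294 loci with a value above 0 in every group, 30 (0.411%) were at least 2-fold lower in control sedentary than in each other group while the other groups lay within 2-fold (39, or 0.535%, without the last condition). Of these 30, 7 were members, 8 were on the other choroid plexus lists and 15 were on no list used here. Likeness was measured as the distance between log2 FPKM profiles over the 4 groups, each centred on its own mean, to the median profile of the members, over 6969 loci that reached 1 FPKM. The 6 nearest named genes that are no member were F5 (0.28), Slc4a5 (0.35), Krt18 (0.39), Cldn2 (0.44), Trpv4 (0.56) and Col8a2 (0.68), and each was on a choroid plexus list. The lists were chosen with earlier results of these data known, so neither overlap with them is independent of the data. Krt18, an epithelial keratin gene, had 1.64 FPKM in cKO runner, 1.67 in cKO sedentary, 1.10 in control runner and 0.201 in control sedentary. For the members themselves this distance ran from 0.25 for Kcne2 to 1.34 for the Clic6 locus.

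Genes of tissue next to the plexus were read over the same groups, and differences between lists were not tested. Over single-symbol loci valued in every group, the members had median log2 levels of 2.67 in cKO runner, 3.04 in cKO sedentary and 2.50 in control runner, each relative to control sedentary. The other choroid plexus lists were lower. In that order of groups, transport genes had 0.79, 0.99 and 0.46, and secreted genes 1.41, 1.47 and 0.73. Regulators and receptors had 1.12, 1.09 and 0.28, and junction genes 1.62, 1.64 and 1.06. Ependymal and motile cilia genes, of the cells that line the ventricles, had 0.97, 1.15 and 0.00213 in the same order over 10 loci. Their summed FPKM was 25.2 in cKO runner and 29.7 in cKO sedentary, against 13.5 in control runner and 13.6 in control sedentary. Of 16 such loci, 14 were higher and 1 lower for cKO over control in sedentary mice, against 29.7% and 34.2% of all tested loci. For running in the control 5 were higher and 1 lower, against 17.8% and 14.9%. Rsph1, a gene of motile cilia, had 3.21 FPKM in cKO runner, 3.03 in cKO sedentary, 2.16 in control runner and 1.29 in control sedentary, and was called higher with running in the control (0.75, q = 0.0126 in the authors' deposited table). Ccdc153 was the 1 locus of the list called lower there (-0.81, q = 0.00693 in the authors' deposited table). It had 2.89 FPKM in cKO runner, 4.23 in cKO sedentary, 1.34 in control runner and 2.34 in control sedentary.

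Meningeal and fibroblast genes were mostly higher in the cKO. Of 16 loci, 15 were higher and none was lower for cKO over control in sedentary mice as well as in runners, whereas 4 were lower and none was higher for running in the control. Their medians relative to control sedentary were 0.72 in cKO runner, 0.86 in cKO sedentary and -0.07 in control runner over 14 loci, and their summed FPKM was 1267 in cKO runner, 1179 in cKO sedentary, 776 in control runner and 1008 in control sedentary. Col1a2, a collagen I gene, had 19.5 FPKM in cKO runner and 22.9 in cKO sedentary, against 11.8 in control runner and 11.6 in control sedentary. Hindbrain and midbrain neuron genes, which mark tissue on the other side of the fourth ventricle, were lower with running in the control at 9 of 15 loci and higher at 1, while the members rose. Their summed FPKM over 12 loci was 157 in cKO runner and 124 in cKO sedentary, against 43.7 in control runner and 55.8 in control sedentary. Dbh, the noradrenaline synthesis gene, had 11.2 in cKO runner and 7.16 in cKO sedentary, against 0.355 in control runner and 0.991 in control sedentary.

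Within the cerebellum, granule neuron genes were lower at all 17 loci for cKO over control in sedentary mice and in runners, and with running in the control 10 were higher and 2 lower. Purkinje cell genes were higher at 10 of 11 loci for cKO over control in sedentary mice, and with running in the control 5 were higher and 4 lower. Of all tested loci, 29.7% were called higher and 34.2% lower in the first of these comparisons, and 17.8% and 14.9% in the second. All 4 listed loci of haemoglobin and Alas2, genes of red blood cells, were higher in cKO than in control sedentary mice, and all 4 were lower with running in the cKO. Plvap, the gene of the diaphragm in fenestrated capillaries such as those of the plexus, was lower, with 4.52 FPKM for cKO sedentary and 4.87 for control runner, against 7.34 for control sedentary (q = 0.00186 and 0.0168 in the authors' deposited tables). For running in the control, the median log2 fold change over listed loci was 0.38 for ependymal, 0.25 for granule and 0.19 for Purkinje genes, and -0.35 for meningeal, -0.41 for vessel and blood and -1.19 for hindbrain genes. Listed loci are almost only called ones, so these medians are drawn away from 0. Over single-symbol loci valued in every group, the medians were 0.00213 for ependymal, 0.19 for granule and 0.19 for Purkinje genes. They were -0.07 for meningeal and -1.18 for hindbrain genes, and no vessel and blood locus qualified. The part of ventricular, meningeal or hindbrain tissue in the members' values was not tested.

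**Figure D4:**
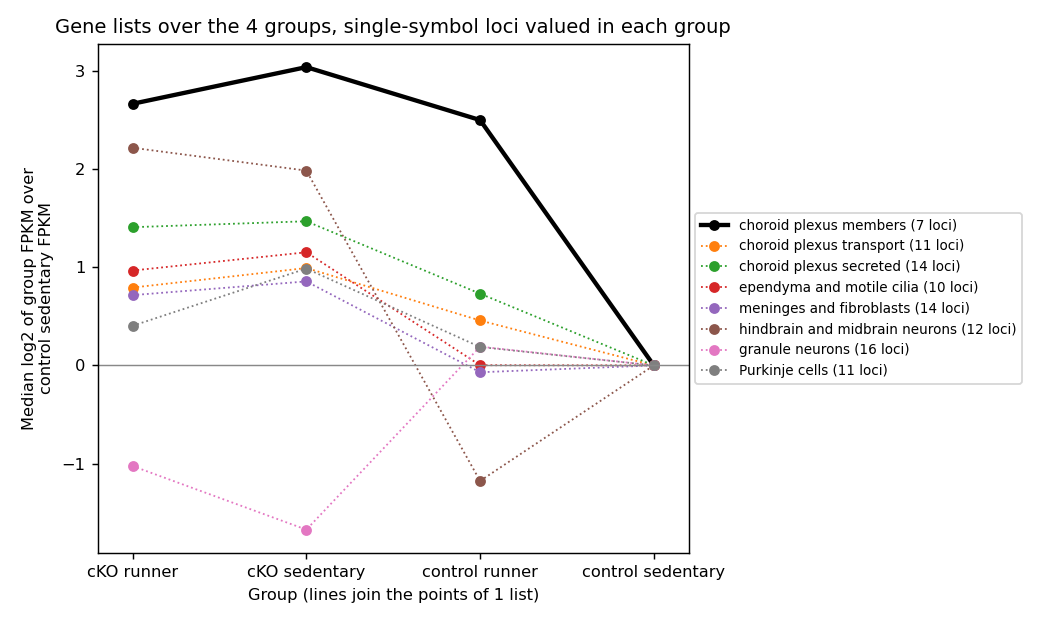
Median log2 of group FPKM over control sedentary FPKM for 8 gene lists in the 4 groups, over loci of 1 symbol with a value in every group; lines only join the points of a list, and control sedentary is at 0 by construction. The members lie at 2.67, 3.04 and 2.50 in cKO runner, cKO sedentary and control runner. In control runner the choroid plexus transport and secreted lists lie far lower than the members, at 0.46 and 0.73, and ependymal, meningeal and hindbrain genes are near or below 0.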

How the data were processed

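Per the labels, 8 libraries of polyadenylated RNA were read from both ends, 100 bases each. Cufflinks 2.1.1, Cuffdiff, TopHat and TopHat2 2.0.8b stand in the submitters' processing notes without roles, with the build mm10. Per the file headers, each of the 4 tables is Cuffdiff output for a pair of groups, with 1 FPKM value per group, a log2 fold change, a test statistic (used here as a score), a p-value and a q-value for each locus, all made by the authors. Folds were turned here to cKO over control and runner over sedentary. All 13151 FPKM values that 2 or more tables share were identical. For 25 loci, none of them a member, a deposited fold differed from the FPKM ratio by over 0.01 log2.

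The tables list called loci almost alone (highest q 0.0631, 0.0530, 0.0264 and 0.0343), so a locus that is not listed was never read as unchanged. The number tested was estimated as listed loci x 0.05 / highest p of the table, which assumes that each table was cut at a false discovery rate of 0.05. Standard errors are the fold divided by the statistic. The z test of differences was run on simulated data with normal noise of the same standard errors that the test uses. That run therefore cannot show whether those standard errors are right for the deposited values. Members, gene lists (12, of 7 to 26 symbols), rules and tests were chosen with earlier results of these data known. Named genes are the members, Smarca5, up to 3 genes per list by smallest q for cKO over control in sedentary mice (ties by size), the 6 nearest profiles, and cell type markers; Socs2, Stat5b, Cish, Prl, Fgfr1 and the genes of the closing observation were named after their values were seen. Longest transcripts and gene positions are from GENCODE M21, upstream sequences from RefSeq. Python 3.11.15, pandas 2.3.3 and scipy 1.17.1 were used. Alternatives were another q, a fold or FPKM minimum, pseudocounts, centring and other standard errors.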

Additional observations from a re-analysis of the deposited data

Results flagged for a closer look

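The genotype effect on members differed between runners and sedentary mice, tested as above over all loci listed in both tables. Runners minus sedentary mice, it differed by -2.80 log2 for Ttr, -2.25 for Kl, -2.45 for Prlr, -2.94 for Tmem72 at XLOC_018580, -2.06 for Cldn1 and -0.71 for the Clic6 locus. Of all loci in that test 28% passed, and the Clic6 locus did not pass with standard errors from the deposited p. The running effect, cKO minus control, differed by -2.80 for Ttr, -3.16 for Kcne2, -2.87 for Aqp1 and -2.06 for Cldn1, in a test that 66.9% of 2078 loci passed. Each of these differences contains the control sedentary group, which is the lowest listed group at all 11 loci. The deposited values combine both libraries of that group, so whether 1 library or both carry the low values cannot be told apart.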

How the results depend on the processing

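The deposited tables hold 1 value per group, so leaving out a library was not possible. No paired analysis was possible because the columns carry no replicate letter. With 1 added to each FPKM, the median log2 fold change of the members was 1.56 for cKO over control in sedentary mice and 1.20 for running in the control, and with 0.1 added it was 2.62 for the first of these. These lower values follow from adding a constant to levels near or under 1 FPKM. Asking for a 2-fold change left 0 higher and 0 lower for cKO over control in runners and 0 higher and 0 lower for running in the cKO. At q below 0.01, 0 were higher for running in the cKO. Without the Clic6 locus and the Tmem72 locus of lower FPKM, a setting added after the data were seen, 3 were higher for cKO over control in runners. With other members in place of Ttr, 3 of 10 proportions were within 1.5-fold, and none of these 3 (Prlr, Sostdc1 and Cldn1) was among the 5 within 1.5-fold against Ttr. The Clic6 locus made up 6.93 of the 10.7 FPKM summed over the loci other than Ttr in control sedentary. A sum without it was not tried. No member changed direction under any pseudocount, centring on all genes or centring on genes of like length, the last also added after the data were seen.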

Other observations

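Among the 15 loci on no list that shared the low control sedentary value, chosen after their values were seen, Zbtb16, a zinc finger transcription factor gene, had 6.60 FPKM in cKO runner, 3.55 in cKO sedentary, 6.33 in control runner and 0.597 in control sedentary. Fkbp5, a co-chaperone gene of steroid receptors, had 16.4 in cKO runner, 8.76 in cKO sedentary, 11.9 in control runner and 4.17 in control sedentary. In both genes the runner value was the higher one within each genotype, as it was for Cldn1, Prlr and Tmem72 at XLOC_018580 among the members, while Ttr, Kl, Kcne2, Aqp1 and the Clic6 locus had the lower value in cKO runner than in cKO sedentary. Of these members, only Cldn1, Ttr, Kcne2 and Aqp1 were listed and called for running in the cKO. Prlr was nearly equal there, at 1.46 FPKM in cKO runner and 1.43 in cKO sedentary.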
